A study of Mus musculus with 8 samples.

Results

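The comparison described here sets ESCs kept in the 2i condition beside ESCs kept without 2i after nucleostemin (NS) had been switched off in both. It rests on 2 of the 8 arrays analysed here, the 2i Dox-treated array and the empty vector Dox-treated array, and covers all 18194 genes that have a probe set with 1 gene symbol. Where several probe sets read a gene, the brightest on average over the 8 arrays stands for it, and its value is the log2 signal of the 2i Dox-treated array minus that of the empty vector Dox-treated array. A positive difference is therefore a higher signal in 2i.

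The cells were NS tet-off ESCs, a male ESC line of 129sv background in which both alleles of the NS gene (symbol Gnl3) are disrupted and NS is made from a cDNA placed in the ROSA26 locus under tetracycline-off control. Doxycycline (Dox) was given for 6 days, which shuts the cDNA off. All cells of this comparison also carried an empty expression vector. The 2i cells were grown with the GSK-3 inhibitor CHIR99021 at 3 uM and the MEK inhibitor PD0325901 at 1 uM, a condition the study also calls 2i plus LIF, and the other cells in feeder-free medium with LIF and serum. Whether the 2i medium held serum, and how long cells had been in 2i before or during Dox, was not given in the sources used here, so the effect of the inhibitors and that of any other difference in medium cannot be told apart. As a model the line has the limit that NS comes from a transgene in 1 engineered line, so that its level is not that of the native gene. The methods give the Dox concentration in 2 different units, so it is left out here.

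There was 1 array for each condition. No difference below has a replicate check, no p-value was computed, and "over 2-fold" means only that the log2 difference of these 2 arrays is above 1 or below -1. The same contrast without Dox, the 2i Dox-untreated array minus the empty vector Dox-untreated array, shares no array with it and is given beside it. The arrays with forced Nanog or Esrrb are named only where their levels help to place a gene.

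MEK is the kinase that activates Erk, and Erk in turn switches on transcription of immediate early genes, of ETS family factors and of its own inhibitors, among them Sprouty proteins and the dual specificity phosphatases. GSK-3 marks beta-catenin for destruction, so its inhibition stabilises beta-catenin, which in mouse ESCs relieves repression by Tcf7l1 at genes such as Esrrb, Tfcp2l1 and Klf2. Blocking both kinases is used to hold mouse ESCs in the naive state, the state of the preimplantation epiblast, whereas Fgf and Erk signalling accompanies the passage to the primed state of the later epiblast.

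Targeting of NS was checked first. Gnl3 had a log2 signal of 8.01 on the 2i Dox-treated array and 7.79 on the empty vector Dox-treated array, against 13.54 in 2i and 13.47 in empty vector cells without Dox. As linear signal the Dox-treated arrays held 2.27% (2i) and 1.95% (empty vector) of the level of empty vector cells without Dox, so both cultures had lost nearly all of the Gnl3 signal. The label ESC was borne out by its markers: Pou5f1, Sox2, Nanog, Sall4, Zfp42 and Utf1 all lay above the median signal of genes over both arrays (6.70), between 9.50 and 13.23 in 2i Dox-treated cells and between 10.85 and 12.87 in empty vector Dox-treated cells. Of 6 trophoblast markers, 3 lay below the median signal on each of these arrays, as did all 5 primitive endoderm markers. The summed linear signal of the trophoblast markers was 3373 in 2i Dox-treated cells, 9016 in empty vector Dox-treated cells and 669 in empty vector Dox-untreated cells, most of it from Krt8 and Krt18. In bulk RNA, fewer cells of a type and less RNA per cell cannot be told apart.

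Across the 18194 genes, 571 (3.14%) had a signal over 2-fold higher in 2i Dox-treated cells than in empty vector Dox-treated cells, and 469 (2.58%) a signal over 2-fold lower. Over 4-fold there were 114 higher and 80 lower genes, and over 8-fold 28 higher and 12 lower. The median difference over all genes was 0.05 and its SD over genes 0.513, with 10402 genes above 0 and 7774 below 0. These arrays correlated at r = 0.985 over probe sets, and among the 28 pairs of the 8 arrays they ranked 13 by the spread of gene differences. Without Dox the 2i and empty vector arrays differed less: 94 genes (0.517%) were over 2-fold higher in 2i and 44 (0.242%) over 2-fold lower, with an SD of 0.278, which ranked 27 of the 28 pairs. The member nearest to the threshold on the inside had a difference of 1.00155 and the nearest on the outside 0.999975, and on the lower side -1.00034 and -0.998752.

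**Figure D1:**
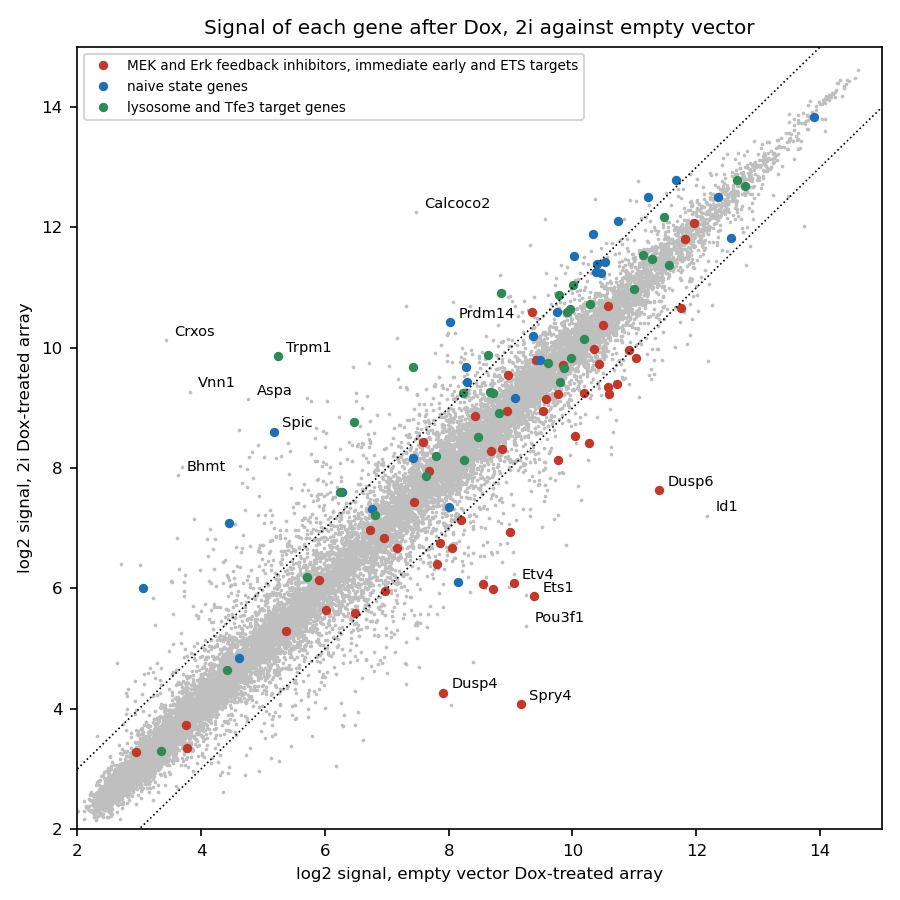
Log2 signal of each of 18194 genes on the 2i Dox-treated array (vertical axis) against the empty vector Dox-treated array (horizontal axis), with dotted lines at a 2-fold difference. Red points are Erk feedback inhibitors and immediate early or ETS genes, blue points naive state genes and green points lysosome and Tfe3 target genes. Spry4 (4.07 against 9.17) and Dusp6 lie far below the diagonal, and Crxos (10.13 against 3.43) lies far above it.

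How firmly a gene is placed depends on its signal and on its probe sets. Of the 571 higher genes, 346 lay below the median signal on the empty vector array and 160 on both arrays, and of the 469 lower genes 278 lay below it on the 2i array and 123 on both. A difference with 1 side near background is compressed on this scale. Of the higher genes, 277 have several probe sets, all of which were past 2-fold for 88 and at least 2 of which were for 142. Of the lower genes 275 have several, with all past 2-fold for 69 and at least 2 for 136. In 0 genes of either direction did another probe set pass 2-fold the opposite way. Averaged over all their probe sets, 27 of 174 genes followed here were no longer over 2-fold, among them Fgfr2, Utf1, Lef1, Dkk1, Wnt6, Tbx3, Grhl2, Id2, Smad7, Osmr, Ctsa, Gpnmb, Gstm1, Bik, Bmf, Tigar, Igf2, Peg3, Ankrd1, Zyx and Prph. Their differences below are those of the brightest probe set alone.

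Transcriptional targets of the inhibited MEK and Erk cascade held several of the lowest genes. Of 18 feedback inhibitors of the Fgf, Ras and Erk pathway, 0 lay over 2-fold higher and 8 lay over 2-fold lower in 2i Dox-treated cells, with a median difference of -0.83 against 0.05 over all genes. Spry4, a Sprouty protein that restrains Ras signalling, had the lowest difference of all genes, with a log2 signal of 4.07 in 2i Dox-treated cells and 9.17 in empty vector Dox-treated cells, a difference of -5.09. Its 4 probe sets ranged from -5.09 to -0.24. Dusp6, the cytoplasmic phosphatase that removes phosphate from Erk, had 7.63 in 2i Dox-treated cells and 11.40 in empty vector Dox-treated cells (-3.77). Dusp4, its nuclear relative, had 4.27 in 2i Dox-treated cells and 7.91 in empty vector Dox-treated cells (-3.64). On the 2i Dox-treated array each of these genes had its lowest signal of all 8 arrays, and the other 7 arrays spanned 9.17 to 10.17 for Spry4, 10.62 to 11.40 for Dusp6 and 7.53 to 8.71 for Dusp4.

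The remaining feedback genes differed less. Dusp9 (8.13 in 2i and 9.77 in empty vector cells, -1.64), Errfi1, which blocks the EGF receptor (9.23 and 10.59, -1.36), Spred1 (9.34 and 10.57, -1.23), Dusp5 (6.75 and 7.87, -1.11) and Spry1 (7.14 and 8.20, -1.06) were over 2-fold lower. Spry2 at -0.96 and Spred2 at -0.70 lay within 2-fold. Dusp7 differed by 0.01, and the receptor regulators Lrig1 and Lrig3 were higher by 0.86 and 0.59. The list thus holds both the lowest gene of all and genes with almost no difference on these arrays.

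Of 35 immediate early genes and ETS targets of Erk, 13 (37.1%) lay over 2-fold lower and 1 (2.86%) over 2-fold higher, against 2.58% and 3.14% of all genes. The median was -0.42. Ets1, a founding member of the ETS family, had 5.87 in 2i Dox-treated cells and 9.38 in empty vector Dox-treated cells (-3.51), and Etv4, an ETS factor of the Pea3 group, had 6.10 and 9.05 (-2.95). The AP-1 subunit Fosl1 had 5.99 in 2i Dox-treated cells and 8.71 in empty vector Dox-treated cells (-2.72), the secreted peptide precursor Vgf 6.07 and 8.55 (-2.49), and Myc 6.94 and 8.98 (-2.04). Plaur, the urokinase receptor, had 8.41 in 2i Dox-treated cells and 10.26 in empty vector Dox-treated cells (-1.85), and Elk3, Junb and Klf6 had differences of -1.41, -1.37 and -1.32. The EGF receptor ligand gene Hbegf, Phlda1, Dusp1 and Dusp2 made up the rest of the lower genes.

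Not every gene of that class was lower. Fos had 10.59 in 2i Dox-treated cells and 9.34 in empty vector Dox-treated cells (1.25), and Egr1, the zinc finger factor often read as an Erk reporter, had 9.80 and 9.41 (0.39). Both differed in the same direction without Dox, Fos by 1.17 and Egr1 by 1.22. Etv5, the close relative of Etv4, had 12.07 in 2i Dox-treated cells and 11.97 in empty vector Dox-treated cells (0.10), and Ccnd1 10.38 and 10.50 (-0.12).

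**Figure D2:**
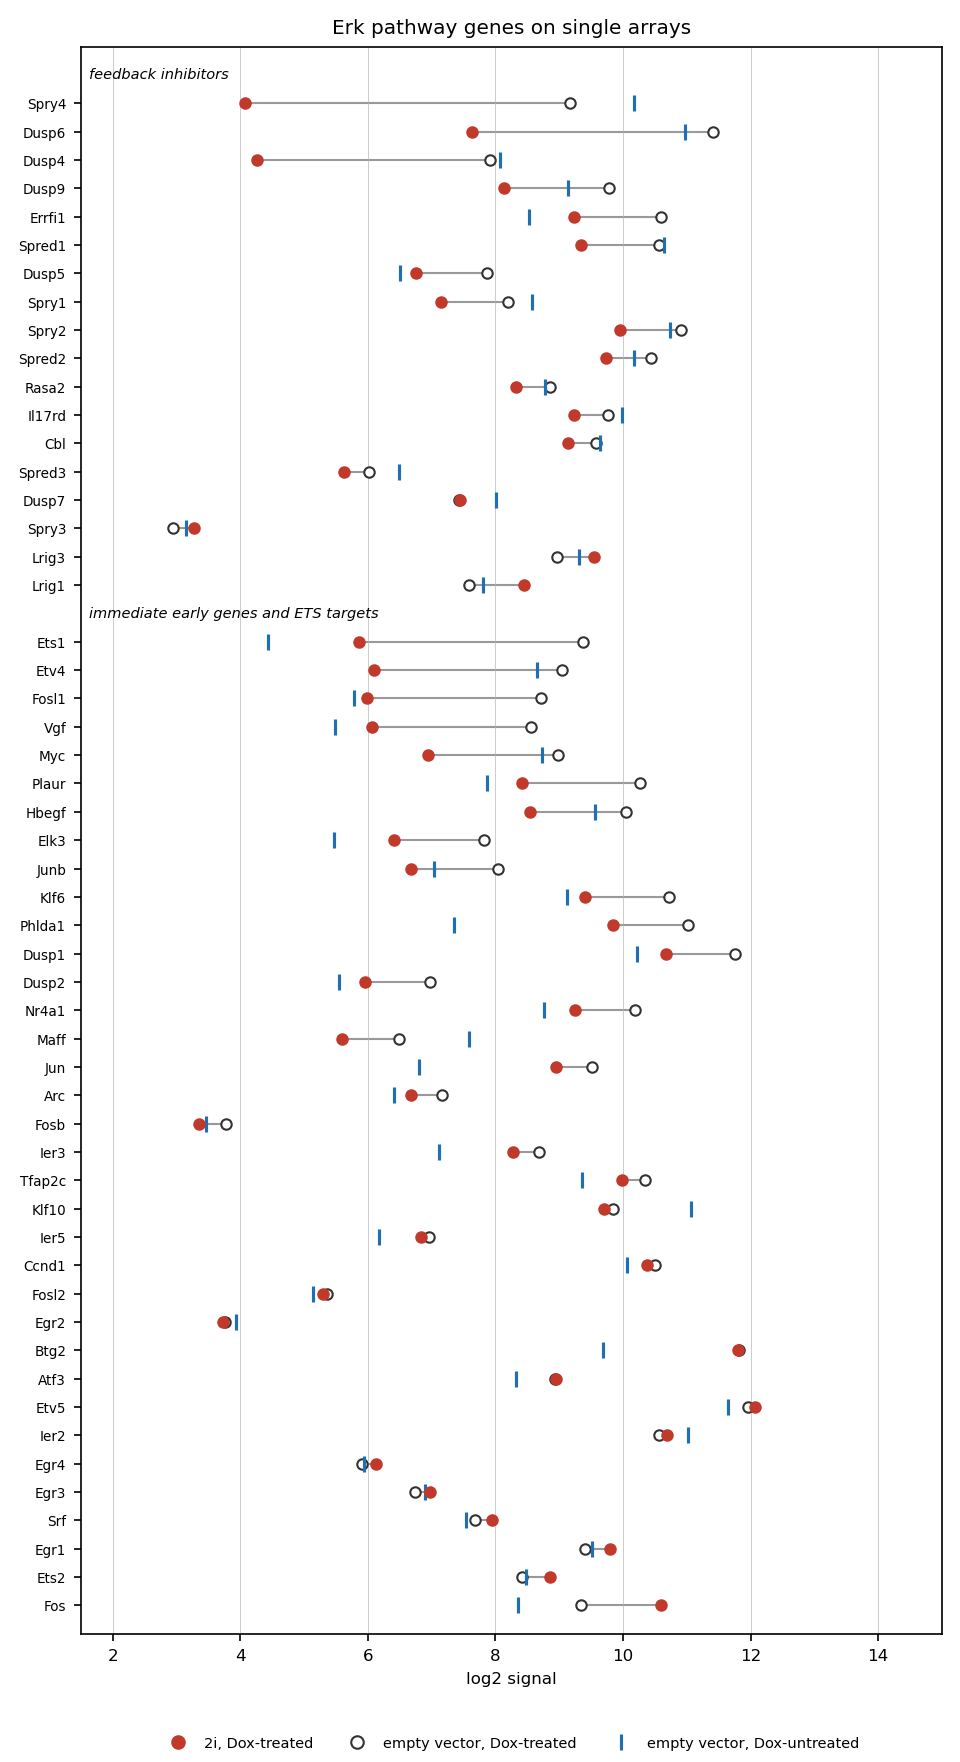
Log2 signal of 18 Erk feedback inhibitors and 35 immediate early and ETS genes. Filled red circles show the 2i Dox-treated array, open circles the empty vector Dox-treated array and blue ticks the empty vector Dox-untreated array, with 1 array each and no error bars. Spry4, Dusp6 and Dusp4 lie far left of their open circles, and Fos (10.59 against 9.34) lies right of it.

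Many of these genes stood higher in empty vector Dox-treated cells than in the same cells without Dox. Ets1 had 5.87 in 2i Dox-treated cells, 9.38 in empty vector Dox-treated cells and 4.44 in empty vector Dox-untreated cells, and Fosl1 had 5.99, 8.71 and 5.79 on the same arrays. For these genes the 2i Dox-treated level lay between those of empty vector cells with and without Dox. The same held for Plaur (8.41, 10.26 and 7.87), Phlda1 (9.84, 11.02 and 7.35), Elk3, Klf6, Dusp1, Dusp2, Errfi1 and Dusp5. The median level of the immediate early and ETS genes was 8.28, 8.98 and 7.59 on the same arrays. That of the feedback inhibitors was 8.22, 9.07 and 8.95. For Spry4, Dusp6, Dusp4 and Etv4 the 2i Dox-treated level lay far below both, since the empty vector Dox-untreated array held 10.17, 10.97, 8.07 and 8.65. Dusp9, Hbegf, Junb and Myc also had a 2i Dox-treated level below both.

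Without Dox these genes differed little between 2i and empty vector cells. Dusp6 had 10.95 on the 2i Dox-untreated array and 10.97 on the empty vector Dox-untreated array, Spry4 9.92 and 10.17, Dusp4 7.71 and 8.07, and Etv4 8.91 and 8.65. These genes are the usual readout of MEK inhibition, so on this readout the array labelled 2i Dox-untreated lies close to its empty vector partner, and whether those cells had been exposed to the inhibitors for as long is not given in the sources used here. Differences between the contrasts with and without Dox are read below with that in view.

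Among 21 measured ligands, receptors and kinases upstream of Erk, 0 lay over 2-fold higher and 1 (4.76%) over 2-fold lower, against 3.14% and 2.58% of all genes. The median was -0.18. Fgfr2, an Fgf receptor, had 5.70 in 2i Dox-treated cells and 7.70 in empty vector Dox-treated cells (3.99-fold lower, with its other probe sets at only -0.55 and -0.25). Fgf4, the main Fgf ligand of mouse ESCs, had 11.39 in 2i Dox-treated cells and 10.39 in empty vector Dox-treated cells, so that it stayed just under 2-fold higher. Braf differed by -0.62 and Rps6ka3, an Erk-activated kinase, by -0.50.

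The genes of the other inhibited arm were spread around 0. Of 28 Wnt and beta-catenin target genes, 3 (10.7%) lay over 2-fold higher and 3 (10.7%) over 2-fold lower, against 3.14% and 2.58% of all genes. The median was 0.11, or -0.10 over the genes above the median signal. Apcdd1, a membrane-bound Wnt inhibitor, had 9.48 in 2i Dox-treated cells and 7.17 in empty vector Dox-treated cells (2.31, its 6 probe sets from 0.62 to 2.31). Axin2, the scaffold of the beta-catenin destruction complex and a widely used target gene, had 8.63 and 7.73 (0.90), and without Dox 7.65 in 2i and 6.94 in empty vector cells (0.71). Dkk1 (5.69 in 2i Dox-treated and 4.22 in empty vector Dox-treated cells) and Cdx1 (5.73 and 4.57) were over 2-fold higher, with signals below the median on both arrays.

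The lower Wnt target genes were Ascl2 (7.58 in 2i Dox-treated and 9.00 in empty vector Dox-treated cells, -1.43), Ccnd2 (8.28 and 9.64, -1.36) and Lef1 (5.60 and 6.75, -1.14). Ascl2 is also a trophoblast factor and Ccnd2 a G1 cyclin that several pathways control. Sp5, a transcription factor gene read as a target in ESCs, had 8.46 in 2i Dox-treated cells and 8.26 in empty vector Dox-treated cells (0.19). Lgr5, Nkd1, Nkd2, Wif1 and Dkk4 lay below the median signal on both arrays, with differences within 2-fold.

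Of 37 Wnt ligands, receptors and modulators, 1 (2.70%) was over 2-fold higher and 3 (8.11%) over 2-fold lower, against 3.14% and 2.58% of all genes. The median was -0.08. Sfrp1, a secreted Wnt antagonist, had 9.19 in 2i Dox-treated cells and 6.69 in empty vector Dox-treated cells (2.51, its 5 probe sets from 1.45 to 2.78), against 9.40 in empty vector Dox-untreated cells. The ligands Wnt5a (4.74 in 2i Dox-treated and 7.31 in empty vector Dox-treated cells, -2.57), Wnt3 (3.03 and 4.45, -1.42, below the median signal on both arrays) and Wnt6 (6.68 and 7.73, -1.06) were lower. Wnt4 (7.03 and 9.51, -2.49) and Wnt9a (5.58 and 7.81, -2.23) were lower as well and were named after their values were seen.

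Most core factors of pluripotency differed little. Of 23 genes of that list, 1 (4.35%) lay over 2-fold higher and 2 (8.70%) over 2-fold lower, against 3.14% and 2.58% of all genes. The median was 0.11. Pou5f1, which encodes Oct3/4, had 12.99 in 2i Dox-treated cells and 12.71 in empty vector Dox-treated cells (0.29), Sox2 12.93 and 12.87 (0.06), Sall4 11.87 and 11.77 (0.10) and Zfp42 13.01 and 12.79 (0.22). Nanog had 13.23 in 2i Dox-treated cells and 12.49 in empty vector Dox-treated cells, a difference of 0.74. Foxd3, a repressor needed in the early epiblast, was over 2-fold higher (8.17 and 7.16, 1.01), whereas Utf1 (9.50 and 10.85, -1.35) and the RNA-binding protein gene Lin28a (7.97 and 9.24, -1.27) were over 2-fold lower.

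Naive state genes lay mostly higher. Of 28, 12 (42.9%) lay over 2-fold higher and 1 (3.57%) over 2-fold lower, against 3.14% and 2.58% of all genes. A difference above 0 was found for 24, against 10402 of all 18194 genes, and the median was 0.89 against 0.05 over all genes. Spic, an ETS factor gene whose signal is high in naive ESCs, had 8.61 in 2i Dox-treated cells and 5.18 in empty vector Dox-treated cells (3.43). The Prame family genes Pramel6 (6.01 and 3.06, 2.95) and Pramel7 (7.09 and 4.46, 2.63) were higher, although both lay below the median signal in empty vector Dox-treated cells and their other probe sets differed by only 0.19 and 0.79. All 3 genes had their highest signal of the 8 arrays in 2i Dox-treated cells.

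Other naive genes are given beside their level in cells that still made NS. Prdm14, a repressor of Fgf signalling and of DNA methylation, had 10.42 in 2i Dox-treated cells and 8.02 in empty vector Dox-treated cells (2.40), against 9.83 in empty vector Dox-untreated cells. Tbx3 had 11.52 in 2i Dox-treated cells and 10.03 in empty vector Dox-treated cells, against 11.30 without Dox, and Klf4 had 12.78 and 11.68 (1.10), against 12.90. Klf2, a Krueppel-like factor that supports the naive state, had 11.89 and 10.32 (1.56), against 12.48, and Esrrb had 11.26 and 10.38 (0.88), against 11.31. Tcl1, a coactivator of Akt, stayed far below its level without Dox, with 9.43 in 2i Dox-treated cells, 8.29 in empty vector Dox-treated cells and 11.56 in empty vector Dox-untreated cells. For Prdm14, Tbx3, Klf2, Klf4 and Esrrb the empty vector array itself was lower after Dox than without it.

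The list also held Mras, a Ras relative (9.68 in 2i Dox-treated and 8.27 in empty vector Dox-treated cells, 1.41), Jam2, a junction protein gene (12.11 and 10.74, 1.37), Dppa3 (7.61 and 6.27, 1.33) and Tfcp2l1 (12.50 and 11.22, 1.28), all over 2-fold higher. Gbx2, a homeobox gene and LIF target, went the other way with 6.11 in 2i Dox-treated cells and 8.14 in empty vector Dox-treated cells (-2.03). Klf5 differed by -0.73, although its 3 probe sets ranged from -1.57 to 0.24. Without Dox only Pramel6 of the naive genes named above differed over 2-fold (1.32), and Spic, Prdm14, Klf2 and Klf4 differed by 0.86, 0.43, -0.04 and 0.13.

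Primed epiblast genes were split. Of 26, 7 (26.9%) lay over 2-fold lower and 5 (19.2%) over 2-fold higher, against 2.58% and 3.14% of all genes. The median was -0.25, or -0.67 over the genes above the median signal. Pou3f1, the POU factor Oct6 of the later epiblast, had 5.38 in 2i Dox-treated cells and 9.25 in empty vector Dox-treated cells (-3.87, with its other probe set at -2.04). Grhl2, an epithelial factor of the formative transition, had 6.44 and 8.87 (-2.43), although its 3 other probe sets lay between -0.08 and 0.11. Sox11 had 5.94 and 8.34 (-2.39), Dmrt1 6.18 and 7.75 (-1.57) and Otx2, a head and epiblast homeobox gene, 5.22 and 6.79 (-1.57). Otx2 and Dmrt1 were already lower in empty vector cells after Dox, with 9.11 and 10.22 in empty vector Dox-untreated cells. Fgf5, the classic marker of the primed epiblast, lay below the median signal on both arrays (3.16 in 2i Dox-treated and 3.48 in empty vector Dox-treated cells). The higher genes were Zic2 (6.44 and 4.35, 2.09, below the median signal on both arrays), Krt7 (8.90 and 7.51, 1.38), Zic5 (8.55 and 7.32, 1.23), Lefty2 (7.90 and 6.69, 1.21) and Foxd3.

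**Figure D3:**
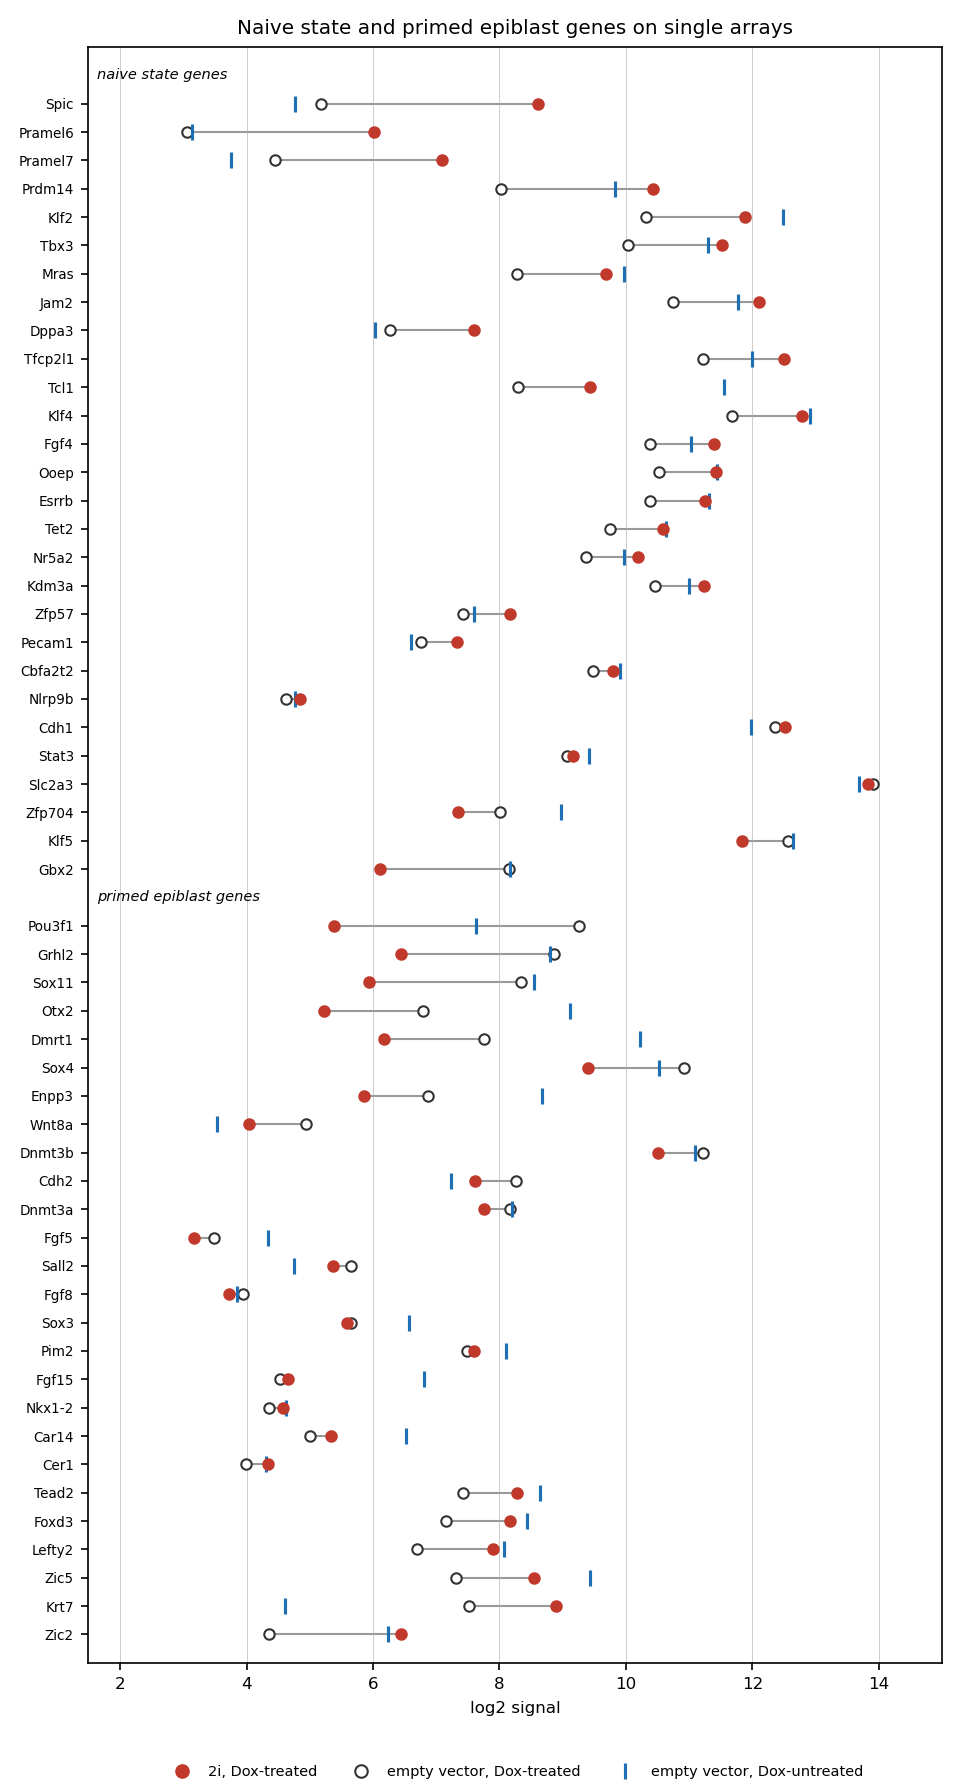
Log2 signal of 28 naive state genes and 26 primed epiblast genes, with filled red circles for the 2i Dox-treated array, open circles for the empty vector Dox-treated array and blue ticks for the empty vector Dox-untreated array. Each point is 1 array. In the upper block most red circles lie right of the open circles (Spic 8.61 against 5.18), and in the lower block Pou3f1 (5.38 against 9.25) lies farthest to the left of its open circle.

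Enzymes of DNA methylation, which naive culture in 2i is known to lower, differed within 2-fold. Of 15 genes of that list, 1 (Prdm14, 6.67% of the list) was over 2-fold higher and 0 over 2-fold lower, against 3.14% and 2.58% of all genes. The median was -0.15. The cofactor gene Dnmt3l had 11.44 in 2i Dox-treated cells and 12.31 in empty vector Dox-treated cells (-0.87), the de novo methyltransferase gene Dnmt3b 10.51 and 11.22 (-0.70) and Dnmt3a 7.76 and 8.17 (-0.42). The maintenance enzyme Dnmt1 differed by -0.31, and its partner Uhrf1 by 0.24. Tet2, which oxidises methylcytosine, was 0.84 higher, and Tet1 differed by -0.28.

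Genes of other lineages were examined next. Among 29 markers of trophoblast, 5 (17.2%) lay over 2-fold higher and 9 (31.0%) over 2-fold lower, against 3.14% and 2.58% of all genes. The median was 0.10. Lower in 2i Dox-treated cells were the simple epithelial keratins Krt8 (10.72 in 2i Dox-treated, 12.25 in empty vector Dox-treated and 8.40 in empty vector Dox-untreated cells), Krt18 (10.22, 11.89 and 7.48 on the same arrays) and Krt19 (9.97, 11.39 and 6.43), with differences of -1.53, -1.67 and -1.41. Their 2i Dox-treated level lay between that of empty vector cells with and without Dox. Regulators of the lineage were mixed. Eomes had 8.57 in 2i Dox-treated cells, 7.84 in empty vector Dox-treated cells and 6.74 in empty vector Dox-untreated cells, and Tfap2c had 9.99, 10.34 and 9.36 on the same arrays. Others lay below the median signal, with Cdx2 at 5.01 in 2i Dox-treated and 5.35 in empty vector Dox-treated cells, Elf5 at 3.42 and 3.32, and Gata3 at 6.18 and 5.99. The higher genes were Tfap2a (7.57 and 5.93, 1.64), Krt7, Plac8, Rhox6 and Rhox9.

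Epidermal and keratinocyte genes were also divided, with 2 of 32 (6.25%) over 2-fold higher and 7 (21.9%) over 2-fold lower, against 3.14% and 2.58% of all genes. The median was 0.01, or -0.77 over the genes above the median signal. Sfn, the 14-3-3 sigma gene of epithelia, had 7.47 in 2i Dox-treated cells and 10.14 in empty vector Dox-treated cells (-2.67), the Fgf-binding protein gene Fgfbp1 9.79 and 12.19 (-2.40) and the suprabasal keratinocyte gene Sbsn 9.97 and 11.28 (-1.30). Krtdap, a gene of differentiating keratinocytes, went the opposite way, with 10.16 and 7.17 (2.99). All 4 of these genes had a lower signal still in empty vector Dox-untreated cells, at 6.46 for Sfn, 7.27 for Fgfbp1, 5.79 for Sbsn and 4.23 for Krtdap.

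Endoderm, mesoderm and neural lists had members past 2-fold in both directions. Of all genes, 3.14% were over 2-fold higher and 2.58% lower. Of 27 primitive endoderm genes 3 (11.1%) were higher and 3 (11.1%) lower. Of 29 mesoderm and primitive streak genes 2 (6.90%) were higher and 3 (10.3%) lower, and of 27 neural genes 1 (3.70%) was higher and 4 (14.8%) lower. Gata4 (4.62 in 2i Dox-treated and 4.57 in empty vector Dox-treated cells), Gata6 (6.17 and 6.31), Sox17 (5.59 and 5.19), Mixl1 (5.14 and 4.66), Mesp1 (5.47 and 5.40), Sox1 (4.93 and 5.08) and Pax6 (6.00 and 5.90) all lay below the median signal on both arrays. Not all lineage markers did. The mesoderm marker Kdr (7.27 and 6.37) lay above it in 2i Dox-treated cells, and the neural marker Nes (7.80 and 8.12) on both arrays. Below it on each of these arrays lay 2 of 4 neural markers and 3 of 4 markers of endothelium and blood. The primitive endoderm marker Sox7 was over 2-fold lower (-2.76), and Dab2 (1.58) and Pdgfra (1.06) were over 2-fold higher, all below the median signal on both arrays. Among the genes above the median signal on at least 1 array, the endocytic receptor gene Lrp2 was lower (6.32 and 7.92, -1.59). The neuronal factor Neurod1 was lower too (9.98 and 11.37, -1.39), and the microtubule regulator Stmn2 was higher (10.69 and 9.07, 1.62). Fgfr2, Bmp4 and Gbx2, which belong to these lists and are described with others, were over 2-fold lower as well.

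Of 28 Hox and retinoic acid genes, 5 (17.9%) lay over 2-fold higher and 2 (7.14%) over 2-fold lower, against 3.14% and 2.58% of all genes. Stra8, the retinoic acid target that opens meiosis, had 8.35 in 2i Dox-treated cells and 6.71 in empty vector Dox-treated cells (1.64), and the retinoic acid carrier gene Crabp2 had 6.21 and 7.64 (-1.43). Meis2, Rarb, Dhrs3 and Cdx1 were higher with signals below the median on both arrays. Germline genes (2 of 33 higher, 2 lower, 6.06% each) and genes of the 2-cell embryo (0 of 13 in either direction) had medians near 0. For a list of 13 genes, 0 past 2-fold lies near the share of all genes. Kit, the stem cell factor receptor, was among the higher germline genes with 9.97 in 2i Dox-treated cells and 8.37 in empty vector Dox-treated cells (1.60).

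Genes of the BMP pathway held the second of the lowest genes. Id1, an inhibitor of basic helix-loop-helix factors and a BMP target in ESCs, had 7.21 in 2i Dox-treated cells and 12.18 in empty vector Dox-treated cells (-4.97), against 9.45 to 12.18 over the other 7 arrays. Id2 was lower too (10.59 and 11.80, -1.21), as was the ligand Bmp4 (8.24 and 10.62, -2.37), which lay between 10.31 and 11.58 on the other 7 arrays. Skil, which represses Smad targets, had 9.80 and 11.32 (-1.53). Within the list of 31 Nodal, BMP and TGF-beta genes, 2 were over 2-fold higher, Smad7 (10.90 and 9.71, 1.19) and Lefty2, and 4 over 2-fold lower, with a median of 0.00. These were 6.45% and 12.9% of the list, against 3.14% and 2.58% of all genes.

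Targets of LIF and Stat3 were divided, with 5 of 23 (21.7%) over 2-fold higher and 4 (17.4%) over 2-fold lower, against 3.14% and 2.58% of all genes. The higher ones were Pramel7, Tbx3, Tfcp2l1, Fos and Klf4 and the lower ones Myc, Gbx2, Osmr and Junb. Stat3 itself had 9.16 in 2i Dox-treated cells and 9.07 in empty vector Dox-treated cells (0.09).

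Genes of lysosomes and targets of Tfe3 were examined as a further list. Tfe3 is a relative of Mitf that drives lysosomal genes through the palindrome CACGTG and that resists the exit of ESCs from the naive state. Of 35 genes of the list, 9 (25.7%) lay over 2-fold higher and 0 over 2-fold lower, against 3.14% and 2.58% of all genes. The median was 0.40. A difference above 0 was found for 26 of the 35, against 10402 of all 18194 genes. Trpm1, a cation channel gene and target of Mitf in melanocytes, had 9.87 in 2i Dox-treated cells and 5.24 in empty vector Dox-treated cells (4.62), against 8.76 and 8.70 on the Dox-untreated 2i and empty vector arrays. Its 4 probe sets ranged from 0.05 to 4.62. Mitf itself had 9.68 and 7.43 (2.26), the beta-glucuronidase gene Gusb 8.76 and 6.47 (2.29, its other probe set at 1.72), and Hexa, a subunit of beta-hexosaminidase, 10.91 and 8.85 (2.06).

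Ctsa, Lamp2, Psap and Glb1, encoding lysosomal enzymes, a membrane protein and a saposin precursor, were higher by 1.25, 1.08, 1.04 and 1.03, and Gpnmb had 7.61 in 2i Dox-treated cells and 6.25 in empty vector Dox-treated cells (1.36). The 2 probe sets of Ctsa disagreed, at -0.39 and 1.25. Other lysosomal genes differed little, among them Lamp1 (12.79 and 12.66, 0.13) and Ctsd (11.38 and 11.55, -0.17), and Mcoln1, the lysosomal calcium channel gene, had 8.52 and 8.47 (0.05). For Hexa the 2i Dox-treated level remained below the 12.30 of empty vector Dox-untreated cells, whereas for Trpm1, Mitf and Gusb it lay above the Dox-untreated level.

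The promoters of the list were searched for CACGTG, which reads the same on both strands. The 250 bases before the start of a promoter entry (RefSeq, GRCm38.p6) held it in 13 of 30 genes of the list with an entry, 43.3%, against 6.86% of all 27025 genes with an entry. The 32851 entries include genes with several starts, and a gene was counted if any of its entries held the motif. Among the 9 genes over 2-fold higher, 3 held it, and among the 21 within 2-fold, 10 held it. The promoters of Trpm1, the gene with the largest difference in the list, and of Mcoln1, which differed by only 0.05, are shown because both hold the motif, with the motif in capitals. That of Trpm1 covers chr7:64185209-64185458 on the plus strand with 1 match 229 bases before the start of its entry. This stretch overlaps the annotated span of Trpm1 itself. That of Mcoln1 overlaps no annotated gene and covers chr8:3500269-3500518 on the plus strand with 2 matches 71 and 45 bases before the start.
Trpm1: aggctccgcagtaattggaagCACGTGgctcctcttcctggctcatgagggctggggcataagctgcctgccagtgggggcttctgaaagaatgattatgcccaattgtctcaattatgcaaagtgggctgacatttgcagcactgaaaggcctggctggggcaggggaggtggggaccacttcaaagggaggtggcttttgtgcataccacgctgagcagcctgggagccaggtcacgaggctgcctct
Mcoln1: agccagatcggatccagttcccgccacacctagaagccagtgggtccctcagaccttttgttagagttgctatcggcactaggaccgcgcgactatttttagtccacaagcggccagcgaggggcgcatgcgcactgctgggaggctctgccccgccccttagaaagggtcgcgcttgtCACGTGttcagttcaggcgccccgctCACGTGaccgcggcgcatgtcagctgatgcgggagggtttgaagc
The list was assembled partly from genes known as targets through this motif, so its share is not independent of the choice, and a match is only a match of letters. The corresponding search for CTTTGAT, a Tcf and Lef motif, on both strands found it in 3 of 17 Wnt target genes with an entry, 17.6%, and in 3.72% of all genes. All 3 lay within 2-fold. With an entry there were 1 Wnt target gene over 2-fold higher and 2 over 2-fold lower, and 0 of these held the motif.

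Genes of fatty acid oxidation and lipid breakdown had members far above the threshold. Of 27, 6 (22.2%) lay over 2-fold higher and 0 over 2-fold lower, against 3.14% and 2.58% of all genes. The median was 0.25. The 6 were Vnn1, Lpl, Hexa, Acaa2, Cpt1a and Ehhadh. Hexa is also counted in the lysosome list, so these lists are not separate. Ehhadh (5.45 in 2i Dox-treated and 4.20 in empty vector Dox-treated cells) lay below the median signal on both arrays. Vnn1, the pantetheinase and a target of the fatty acid sensor PPARA in liver, had 9.27 in 2i Dox-treated cells and 3.82 in empty vector Dox-treated cells (5.45, its other probe set at 4.35), and it lay below the median signal on both Dox-untreated arrays (3.72 in 2i and 3.79 in empty vector cells). The lipoprotein lipase gene Lpl had 9.75 in 2i Dox-treated cells and 6.71 in empty vector Dox-treated cells (3.04), the mitochondrial thiolase gene Acaa2 9.21 and 7.48 (1.73) and Cpt1a, whose product brings fatty acids into mitochondria, 9.83 and 8.50 (1.34, its 3 probe sets from 1.34 to 1.45). Slc25a20, the carnitine carrier that acts with Cpt1a, had 12.14 and 9.56 (2.58) and was named after its value was seen.

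**Figure D4:**
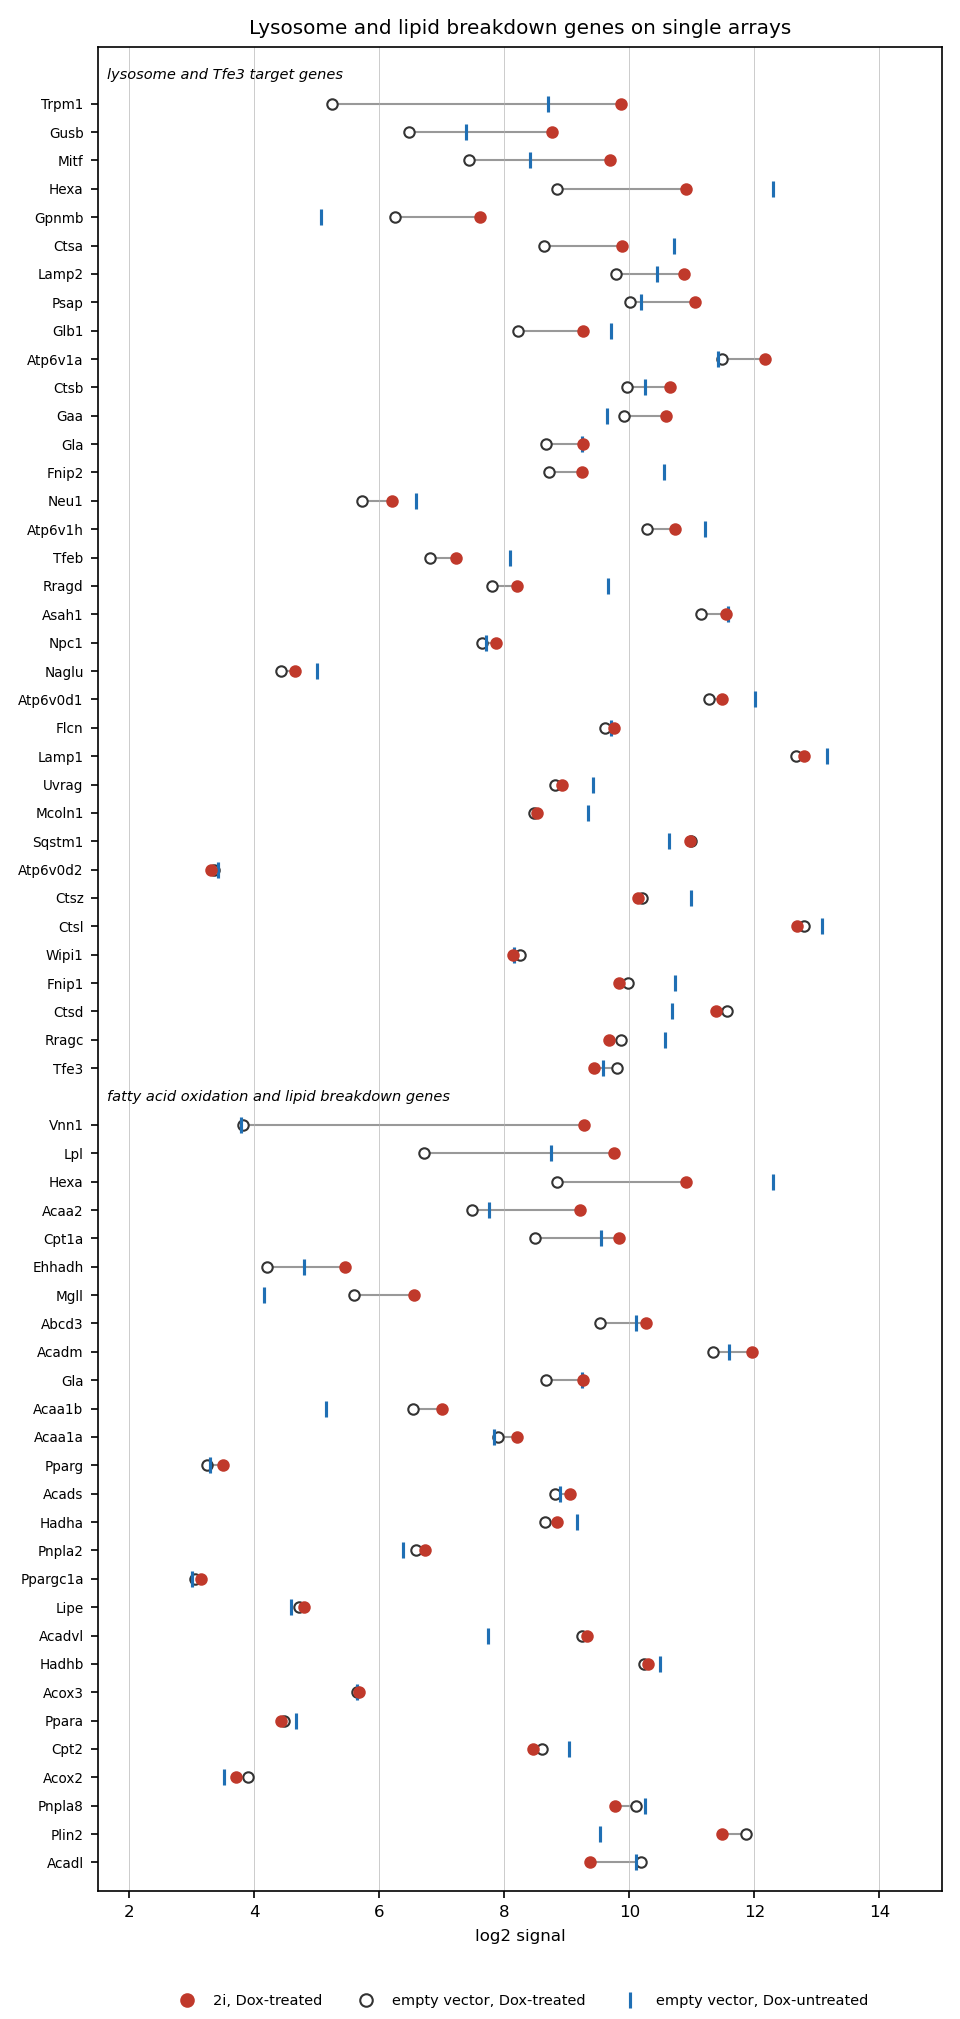
Log2 signal of 35 lysosome and Tfe3 target genes and 27 fatty acid oxidation and lipid breakdown genes on the 2i Dox-treated array (filled red circles), the empty vector Dox-treated array (open circles) and the empty vector Dox-untreated array (blue ticks), 1 array each. Trpm1 (9.87 against 5.24) and Vnn1 (9.27 against 3.82) show the widest gaps of their blocks, and Lamp1 and Mcoln1 show almost none.

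Genes of lipid synthesis differed by small amounts. Of 28 sterol and fatty acid synthesis genes, 25 had a difference above 0, against 10402 of all 18194 genes, with a median of 0.33. Against 3.14% of all genes, 1 gene of the list (3.57%) was over 2-fold higher. That gene was the desaturase gene Scd1, at 10.24 in 2i Dox-treated cells and 8.10 in empty vector Dox-treated cells (2.14). Sqle, Hsd17b7 and Scd2 were higher by 0.96, 0.95 and 0.80.

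Glycolysis and hypoxia genes had a median near 0, with 1 of 32 (3.125%, against 3.14% of all genes) over 2-fold higher. It was the hexokinase gene Hk1 (9.24 in 2i Dox-treated and 8.06 in empty vector Dox-treated cells, 1.18). The glucose transporter gene Slc2a1 (12.53 and 13.49, -0.96) and the pyruvate dehydrogenase kinase gene Pdk1 (8.82 and 9.79, -0.97) were lower within 2-fold. Nrf2 targets and metallothioneins had a median of 0.44 and 0 genes over 2-fold lower, against 2.58% of all genes. Against 3.14% of all genes, 6 of 24 (25%) were over 2-fold higher. They were the glutathione transferase genes Gsta3 (8.02 and 6.08, 1.94) and Gstm1 (8.66 and 7.55, 1.10), Nqo1 (9.87 and 8.50, 1.38), Sod2 (12.15 and 10.83, 1.32), Cat (11.10 and 10.07, 1.02) and Me1, which lay just above the threshold. Nqo1, Sod2 and Cat encode enzymes that detoxify quinones, superoxide and peroxide, and Me1 a source of NADPH.

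Growth and stress lists stood near 0. Of 44 DNA replication and mitosis genes and of 40 ribosome biogenesis and Myc target genes, 0 were over 2-fold different, with medians of -0.12 and -0.04, although Myc itself was over 2-fold lower. Among 26 G1 genes, 3 (11.5%, against 2.58% of all genes) were over 2-fold lower, the Cdk inhibitor gene Cdkn1c (8.13 in 2i Dox-treated and 10.25 in empty vector Dox-treated cells, -2.12), Ccnd2 and Myc. The integrated stress response had 0 of 31 genes past 2-fold. Of all genes, 3.14% were over 2-fold higher and 2.58% lower. Nearly all genes of these lists (43 of 44, 40 of 40 and 30 of 31) lay above the median signal on at least 1 of the arrays. Of all genes above it, 4.33% were over 2-fold higher and 3.64% lower. The 0 past 2-fold lay below these shares, a gap that was not tested.

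Targets of p53, which holds damaged cells at a checkpoint, had a difference below 0 for 27 of 33 genes, against 7774 of all 18194 genes. Their median was -0.30, and without Dox it was -0.22. Of these genes, 3 were over 2-fold lower, Sfn, Plk3 (6.59 in 2i Dox-treated and 8.40 in empty vector Dox-treated cells, -1.81) and Gadd45a (9.54 and 11.24, -1.70), and 1 over 2-fold higher, the glycolytic regulator gene Tigar (9.43 and 8.23). These were 9.09% and 3.03% of the list, against 2.58% and 3.14% of all genes. Cdkn1a, which encodes p21, had 11.63 and 11.08 (0.55), and Mdm2, the p53 ubiquitin ligase gene, 11.92 and 12.76 (-0.83). In empty vector Dox-untreated cells these genes had 9.62 and 10.54, so both remained above that level in 2i. Of 28 apoptosis genes, 3 (10.7%, against 2.58% of all genes) were over 2-fold lower, all of them genes of BH3-only proteins: Bcl2l11, which encodes Bim and is held down by Erk in other cells, with 8.41 and 10.05 (-1.64), Bmf (5.43 and 6.51, -1.08) and Bik (5.85 and 6.89, -1.04). The 5 probe sets of Bcl2l11 ranged from -1.64 to -0.89, whereas Bmf had 1 at 0.26 and Bik 1 at -0.36, and the means over probe sets were -0.28 for Bmf and -0.86 for Bik.

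Adhesion and cytoskeleton genes had more members over 2-fold lower than higher. Of 39 cell adhesion and matrix genes, 8 (20.5%) lay over 2-fold lower and 2 (5.13%) over 2-fold higher, against 2.58% and 3.14% of all genes. The median was -0.27. The tight junction genes Cldn6 (7.22 in 2i Dox-treated and 9.76 in empty vector Dox-treated cells, -2.55) and Cldn7 (7.32 and 9.32, -1.99) and the epithelial adhesion gene Epcam (10.02 and 11.66, -1.65) were lower, and so were the integrin gene Itga3 (7.62 and 9.33, -1.71) and Col18a1 (9.80 and 11.45, -1.66). Fn1, which encodes fibronectin, and Nid1 were the higher genes, Fn1 having 12.48 in 2i Dox-treated cells and 10.36 in empty vector Dox-treated cells (2.11), against 12.30 in empty vector Dox-untreated cells. Of 31 actin, SRF and YAP target genes, 25 had a difference below 0, against 7774 of all 18194 genes, with a median of -0.23. The YAP target Ankrd1 was over 2-fold higher (4.49 in 2i Dox-treated and 3.33 in empty vector Dox-treated cells, 1.15, below the median signal on both arrays). Over 2-fold lower were 6 genes (19.4% of the list, against 2.58% of all genes), among them Tagln (6.48 and 7.95, -1.47), Tpm1 (9.52 and 10.80, -1.28) and Zyx (6.70 and 7.97, -1.28).

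Imprinted genes, of which 1 parental allele is expressed, lay mostly lower. Of 30, 25 had a difference below 0, against 7774 of all 18194 genes, with a median of -0.50. Over 2-fold lower lay 10 (33.3%) and over 2-fold higher 0, against 2.58% and 3.14% of all genes. Zdbf2 had 6.57 in 2i Dox-treated cells and 8.70 in empty vector Dox-treated cells (-2.14), Cdkn1c 8.13 and 10.25 (-2.12), the growth factor gene Igf2 7.84 and 9.63 (-1.79), Peg3 9.18 and 10.57 (-1.39) and Phlda2 8.85 and 10.12 (-1.27). Paternally and maternally expressed genes are both among them, for example Peg3 and Igf2 of the paternal kind and Cdkn1c, Phlda2, Meg3 (10.66 and 11.80, -1.15) and Rian (9.62 and 10.68, -1.05) of the maternal kind. Without Dox the list had a median of -0.04, with Peg3, Phlda2 and Meg3 at -0.57, -0.67 and -0.45 and Peg10, Igf2 and Ascl2 at 1.17, 0.32 and 0.27.

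MHC class I and interferon-stimulated genes were divided, with 2 of 29 (6.90%) over 2-fold higher and 3 (10.3%) over 2-fold lower, against 3.14% and 2.58% of all genes. B2m, the light chain of MHC class I, had 10.77 in 2i Dox-treated cells and 9.22 in empty vector Dox-treated cells (1.56, its other probe set at 1.69), and Oas1a, an interferon-induced synthetase gene, 9.71 and 7.04 (2.67). Bst2 had 6.46 and 8.21 (-1.74). Polycomb genes had 0 of 28 past 2-fold, against 3.14% and 2.58% of all genes, a small gap for a list of this size that was not tested. Of 17 housekeeping genes 1 was over 2-fold higher, Gusb, which is also on the lysosome list, with Gapdh at 13.87 in 2i Dox-treated cells and 13.79 in empty vector Dox-treated cells and Actb at 14.19 and 14.35. Fibroblast markers Col1a1, Col1a2, Col3a1 and Thy1 lay below the median signal on both arrays, and Pdgfrb was higher (7.07 and 4.55, 2.52).

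**Figure D5:**
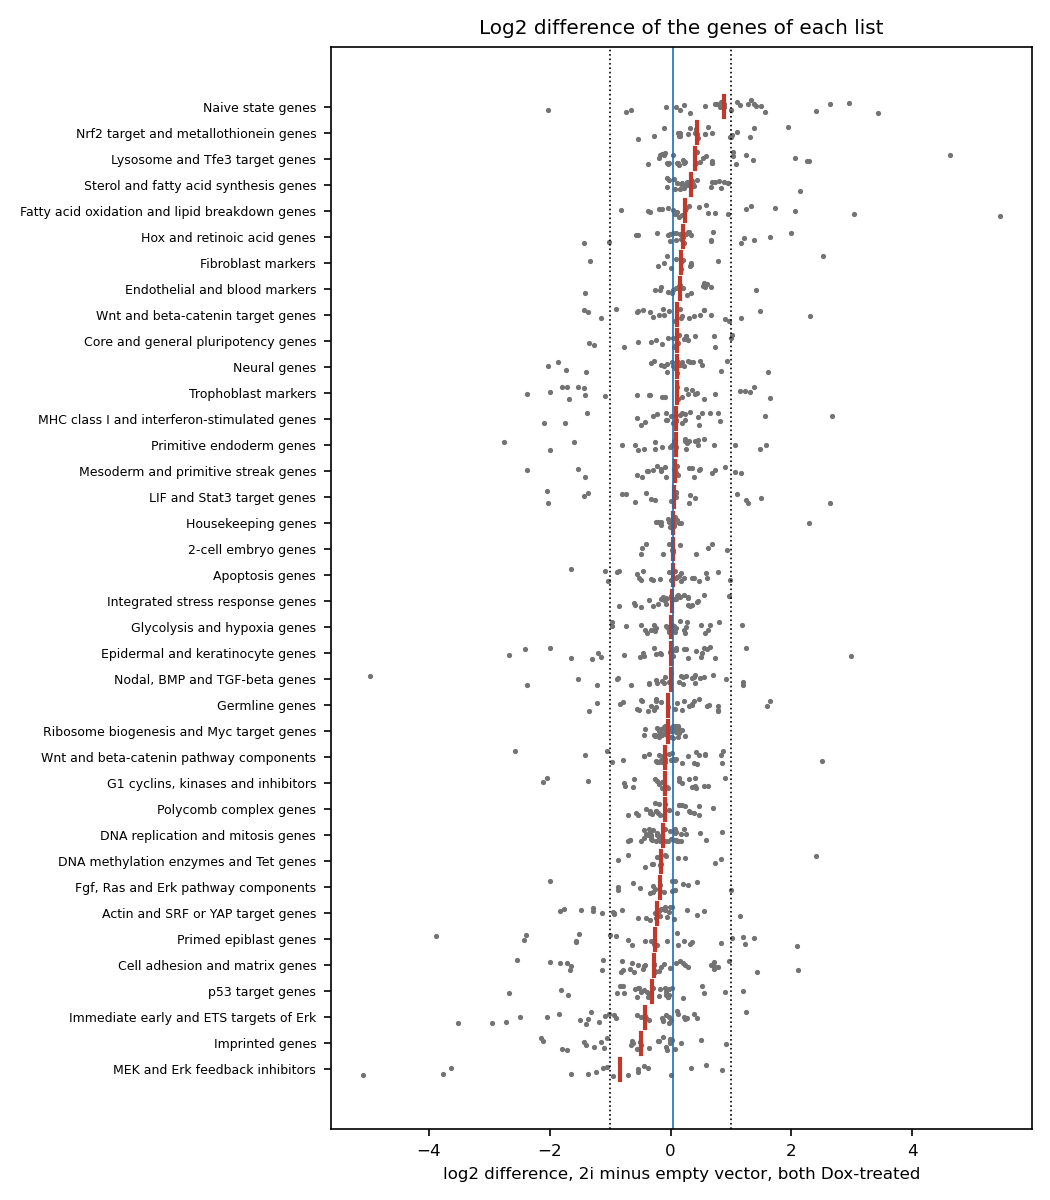
Log2 difference (2i minus empty vector, both Dox-treated) of every measured gene of 38 lists. Each grey point is a gene, red bars are list medians, the blue line is the median over all genes (0.05) and dotted lines mark a 2-fold difference. Naive state genes have the highest median (0.89) and Erk feedback inhibitors the lowest (-0.83).

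Most of the highest genes belong to none of these lists. The order given here is that among genes above the median signal on at least 1 of the arrays. Crxos, a homeobox gene of the early embryo, had 10.13 in 2i Dox-treated cells and 3.43 in empty vector Dox-treated cells (6.71, its other probe set at 1.93). It also differed without Dox, at 7.06 in 2i and 4.43 in empty vector cells (2.63). Calcoco2, an autophagy receptor gene, had 12.26 in 2i Dox-treated cells and 7.47 in empty vector Dox-treated cells (4.79), Aspa, which cleaves N-acetylaspartate, 9.14 and 4.77 (4.38), AA467197 8.01 and 3.69 (4.32), Bhmt, which remethylates homocysteine from betaine, 7.88 and 3.63 (4.26) and 2210409E12Rik 8.63 and 4.61 (4.02). Crxos, Calcoco2, Aspa, AA467197 and Bhmt had their highest signal of all 8 arrays in 2i Dox-treated cells. The next in order were Car8 (3.46, its other probe sets at 0.43 and 0.20), Pla1a (3.44), Slc16a9 (3.44), Spic (3.43), Fbln5 (3.41, its other probe set at 0.10), Gm32960 (3.41) and the water channel gene Aqp3 (3.38, its other probe sets from -0.05 to 3.78).

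The lowest genes beside those already described were Hs6st2, a heparan sulfate sulfotransferase gene (4.07 in 2i Dox-treated and 8.03 in empty vector Dox-treated cells, -3.96, its 4 probe sets from -3.96 to 0.11), and Esrp1, the epithelial splicing regulator (4.78 and 8.40, -3.62). Esrp1 had 9.99 in empty vector Dox-untreated cells. Pla2g7 (5.89 and 9.24, -3.36), Tmcc3 (6.72 and 9.89, -3.17), Apol8 (6.03 and 8.98, -2.95), Coch (4.42 and 7.31, -2.89), Cobll1 (4.69 and 7.52, -2.83, its other probe set at -0.18) and the intermediate filament gene Prph (6.24 and 9.05, -2.81) followed. The 3 other probe sets of Prph lay between -0.50 and -0.02. Heparan sulfate is a cofactor of Fgf receptors, and Hs6st2 was lower in 2i without Dox as well (5.25 and 6.78, -1.53).

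The contrast without Dox was set beside that with Dox gene by gene. Of the 571 genes over 2-fold higher after Dox, 426 (74.6%) also had a difference above 0 without Dox, against 50.9% of all genes, and of the 469 lower genes 299 (63.8%) had a difference below 0, against 49.0% of all genes. Past 2-fold in both contrasts lay 41 higher genes, which are 43.6% of the 94 genes higher without Dox, and 19 lower genes, which are 43.2% of the 44 genes lower without Dox. They included Crxos, Pramel6, Fos, Meis2 and Pdgfrb among the higher and Hs6st2, Dmrt1 and Sycp2 among the lower. In the opposite direction past 2-fold were 2 of the higher and 11 of the lower genes. The differences of the contrasts correlated at r = 0.249 across genes, which are not independent replicates.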

How the data were processed

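RNA of ESCs was hybridised to Affymetrix GeneChip mouse arrays, 1 array per condition. The authors deposited log2 signals made with RMA (affy in R, versions not given in the sources used here), which subtracts background, quantile-normalizes across arrays and summarises probes into probe sets. That the values are log2 is read from their range of 1.82 to 14.63 and the method. Quantile normalization hides a shift of all genes. Of 45101 probe sets, 34958 have 1 symbol in the platform annotation, 932 several and 9211 are unnamed here, and 34754 matched RefSeq by Entrez ID. List genes with no probe set of 1 symbol were not analysed here. 0 value columns belonged to no sample.

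The difference is the 2i minus the empty vector value, taken from the deposited log2 signals with no further scaling, counted past 2-fold (log2 of 1). No test was possible with 1 array per condition, so the single arrays set the precision. The median signal of genes over both arrays (6.70) marks dim genes. The 38 lists (1054 genes, 964 measured) were written from general knowledge, and the members and lists were chosen with earlier results of these data known. The rule for names allowed Gnl3, all Erk feedback, immediate early and ETS, and Wnt target genes, the 15 highest and 15 lowest differences among genes brighter than the median on 1 of the arrays, from every other list the 6 largest absolute differences (all of a list under 20 genes) and genes the study names. Not all of these are printed. All other names were chosen after their values were seen, among them Mras, Jam2, Dppa3, Tfcp2l1, Krt7, Zic5, Lamp2, Psap, Glb1, Phlda2, Meg3, Rian, Cdkn1a, Mdm2 and Slc25a20. Promoters came from RefSeq (GRCm38.p6).

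Alternatives tried were averaging all probe sets of each gene, the probe set highest over these 2 arrays, every probe set past the threshold, omission of probe sets ending in _x_at, a filter on dim genes, centring, quantile normalization of the 2 arrays, and 1.5-fold and 3-fold thresholds. The counting was tested on simulated data. Python 3.11.15, numpy 2.4.6, pandas 2.3.3 and matplotlib 3.10.9 were used.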

Additional observations from a re-analysis of the deposited data

Results flagged for a closer look

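Some genes differed past 2-fold in opposite directions with and without Dox. With 1 array per condition this difference between the contrasts was not tested. Aqp3 was 3.38 higher in 2i after Dox and had a difference of -1.67 without Dox. The other 5 were lower in 2i after Dox and higher without it: Tmcc3 had -3.17 after Dox and 1.71 without, Pla2g7 -3.36 and 1.45, Peg10 -1.71 and 1.17, Elk3 -1.41 and 1.08, and Krt18 -1.67 and 1.07. Over all genes there were 13 of this kind, 2 of them higher after Dox (Aqp3 and Cadps2) and 11 lower, the other 6 lower ones being Itga8, S100a6, Spink10, Hmga2, Irgm1 and Rnf128. Peg10 lay below the median signal on all 4 arrays.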

How the results depend on the processing

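With 1 array per condition no replicate could be left out. No paired analysis was possible because the labels give no replicate numbers and each condition has 1 array. Counts of 571 higher and 469 lower genes became 1409 and 1094 at 1.5-fold and 208 and 173 at 3-fold. Requiring every probe set past 2-fold left 382 higher and 263 lower genes, and averaging all probe sets of each gene gave 462 and 342. The other settings gave 411 to 589 higher and 346 to 518 lower genes, the split after centring being 530 higher and 518 lower. Over genes above the median signal the median of the primed epiblast genes moved to -0.67, and those of the epidermal, Hox and retinoic acid, fibroblast, and endothelial and blood lists to -0.77, -0.56, 1.65 and -0.17, where fewer genes were counted. The medians of the Erk feedback inhibitors (-1.01 to -0.78), of the immediate early and ETS genes (-0.53 to -0.42) and of the naive state genes (0.79 to 0.89) kept their sign in the 6 other settings that give one, while that of the Wnt targets ran from -0.10 to 0.15. Among 359 named genes the mean of probe sets moved 88 by over 0.25 (log2), and 27 of 174 past 2-fold no longer were, against 3 with centring and 2 with quantile normalization. Without Dox the mean of probe sets gave 69 higher and 22 lower genes and the filter on dim genes 47 and 25, settings added after seeing the data. Signal near background, and not only the number of arrays, limits the genes below the median signal.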

Other observations

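The genes given here were picked from those over 2-fold different after their values were seen, and they stand for no group. Bhmt2, the relative of Bhmt, had 7.76 in 2i Dox-treated cells and 4.67 in empty vector Dox-treated cells (3.09, its other probe set at 3.65), and Dmgdh, which oxidises the dimethylglycine that Bhmt makes, had 8.78 and 5.71 (3.06). Without Dox these 2 genes differed by 1.47 and 0.91. The cysteine dioxygenase gene Cdo1 had 9.12 in 2i Dox-treated cells and 5.78 in empty vector Dox-treated cells (3.34), against 8.83 in empty vector Dox-untreated cells, and the histidine ammonia lyase gene Hal had 7.22 and 5.03 (2.19), against 6.83. The glutathione transferase genes Gstm2 (8.42 and 5.40, 3.03) and Gstm6 (6.29 and 4.52, 1.77) were higher.

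The citrate carrier gene Slc13a5 had 8.34 in 2i Dox-treated cells and 6.01 in empty vector Dox-treated cells (2.33), the lipid droplet gene Cidea 7.98 and 4.75 (3.23) and the acyl-CoA synthetase gene Acsl6 8.09 and 6.24 (1.85, or 0.99 as the mean over its probe sets). Among the lower genes, Podxl, a sialomucin of epithelial surfaces, had 6.60 in 2i Dox-treated cells and 8.78 in empty vector Dox-treated cells (-2.18, its other probe set at -0.24), and the matrix protein gene Tgfbi 4.94 and 7.13 (-2.19, its 4 probe sets from -2.19 to -1.67).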
